A study of Homo sapiens with 12 samples.

Results

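The clustered histone genes are the human genes that encode the replication-dependent histones, the linker histone H1 and the core histones H2A, H2B, H3 and H4. They were taken as the human rows of the deposited gene counts whose GENCODE 29 symbol begins with HIST1H, HIST2H, HIST3H or HIST4H, and a row was kept as a member when at least 3 of the 12 files held 10 or more counts. The rule kept 52 of 90 such rows. The members were 5 of 8 linker H1 rows, 11 of 23 H2A rows, 18 of 26 H2B rows, 8 of 17 H3 rows and 10 of 16 H4 rows. Of all 58243 human gene identifiers, 18593 passed the same count rule.

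The samples were tumours grown from MCFDCIS cells, a human breast line that forms lesions like ductal carcinoma in situ in mice. In all 4 groups, 1000000 cells had been placed under the skin of athymic nude mice, which lack T cells, and had 2 weeks to form tumours before dosing began. The groups were palbociclib tumours taken after 2 weeks of 50 mg/kg palbociclib given daily by oral gavage, vehicle tumours taken after 2 weeks of vehicle, palbociclib recovery tumours and vehicle recovery tumours, the last 2 groups having gone through 2 weeks of the same dosing and then a recovery period of a length the labels do not state. Palbociclib inhibits the cyclin-dependent kinases CDK4 and CDK6, and each group held 3 tumours.

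Replication-dependent histones are made in S phase, when newly copied DNA has to be packed into nucleosomes, and their messenger RNAs are lost when DNA synthesis stops. These messenger RNAs lack introns and in most cases end in a conserved stem-loop instead of a poly(A) tail. The stem-loop is bound by SLBP, and NPAT, a substrate of CDK2 with cyclin E, drives their transcription. The genes occur in many copies in a few clusters, and some of the copies are near-identical in sequence.

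The members lie in 4 clusters on GRCh38. The HIST1 cluster, chr6:26017085-27893843, held 43 members, the HIST2 cluster, chr1:149782689-149887916, held 6, the HIST3 cluster, chr1:228456979-228460470, held 2, and HIST4H4 lies alone at chr12:14767999-14771131. Of the 52 members, 51 are annotated as coding and 1, HIST2H2BC, as a pseudogene. Another annotated gene overlaps 7 members, and whether the counting used strand is unstated in the labels, so the values of those 7 members, HIST1H2AL, HIST1H2BN, HIST1H2BD, HIST1H2BE, HIST2H2AB, HIST2H2BC and HIST2H2BF, may include reads of a neighbour.

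Each library held between 8004903 and 15716211 counts assigned to named human or mouse genes, of which 6613880 to 12352064 were human and 14.2% to 25.4% were mouse. Vehicle recovery tumour 2 stood apart on the first principal component of the human counts, at 113.4 against -37.6 to 14.2 in the other 11 libraries, so results that rest on it are given with and without it. Levels are in CPM, the count per 1000000 human counts of the library after scaling. Epithelial markers were high in all 12 libraries, with 123 to 286 CPM for EPCAM and 2935 to 5014 CPM for KRT17, and of 8 such markers 1, KRT5, was higher with palbociclib at the end of treatment. Of the markers of other human cell types reported here, PTPRC, CD3E and ALB stayed at or below 0.741 CPM, while the endothelial marker PECAM1 ranged from 38.8 to 114 CPM with VWF at no more than 1.83 CPM.

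The stem-loop and its neighbouring bases are shown for 10 members, some that passed the test at the end of treatment and some that did not. Whether these letters bear on the change was not tested. All are 26 bases, 5′ to 3′ on the gene's strand, from GENCODE 29 transcripts on GRCh38, written as DNA with the stem-loop in capitals.
HIST1H2AG, chr6:27133510-27133535, plus strand: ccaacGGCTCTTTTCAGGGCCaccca
HIST1H2AC, chr6:26124664-26124689, plus strand: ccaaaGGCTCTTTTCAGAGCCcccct
HIST3H2A, chr1:228457364-228457389, minus strand: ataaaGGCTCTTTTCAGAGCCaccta
HIST1H2BF, chr6:26199963-26199988, plus strand: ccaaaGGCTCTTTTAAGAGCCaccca
HIST2H2BC, chr1:149850297-149850322, minus strand: ccaaaGGCTCTTTTCAGGGCCattta
HIST1H3H, chr6:27810511-27810536, plus strand: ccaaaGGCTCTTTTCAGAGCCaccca
HIST1H3E, chr6:26225591-26225616, plus strand: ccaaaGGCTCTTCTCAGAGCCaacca
HIST1H4E, chr6:26204996-26205021, plus strand: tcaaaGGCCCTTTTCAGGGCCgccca
HIST1H4I, chr6:27139649-27139674, plus strand: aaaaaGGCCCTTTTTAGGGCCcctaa
HIST4H4, chr12:14770719-14770744, minus strand: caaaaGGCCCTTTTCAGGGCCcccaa

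An annotated transcript of 26 of the 52 members held a match to the histone stem-loop motif, 50.0% of the members, against 18 of 19613 coding genes outside the clustered histones, 0.0918%. The other 26 members, all 5 H1 members among them, had no match in the annotated transcripts, which says only that these letters are not in that annotation. The form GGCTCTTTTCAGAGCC was found in 4 H2A members, 8 H2B members and 1 H3 member. The form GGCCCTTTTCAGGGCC was found in 5 members, all of them H4. HIST1H3E alone carried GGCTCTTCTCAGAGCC, and HIST1H4I alone carried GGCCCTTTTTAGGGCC.

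The 250 bases before the annotated start are shown for 4 members that show the motifs, among them HIST1H3E, which was not lower with palbociclib. They are from RefSeq on GRCh38.p14, 5′ to 3′ on the gene's strand, with the CCAAT box, the TATAAA box and the octamer ATTTGCAT in capitals on either strand, 2 TATAAA matches on opposite strands overlapping in HIST1H2BJ.
HIST1H2BJ, chr6:27132796-27133045, minus strand: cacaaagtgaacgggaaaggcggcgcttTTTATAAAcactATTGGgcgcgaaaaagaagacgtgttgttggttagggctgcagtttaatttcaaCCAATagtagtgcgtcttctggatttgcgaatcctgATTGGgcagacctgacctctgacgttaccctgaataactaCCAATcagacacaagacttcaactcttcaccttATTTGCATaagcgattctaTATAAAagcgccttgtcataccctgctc
HIST1H3B, chr6:26032100-26032349, minus strand: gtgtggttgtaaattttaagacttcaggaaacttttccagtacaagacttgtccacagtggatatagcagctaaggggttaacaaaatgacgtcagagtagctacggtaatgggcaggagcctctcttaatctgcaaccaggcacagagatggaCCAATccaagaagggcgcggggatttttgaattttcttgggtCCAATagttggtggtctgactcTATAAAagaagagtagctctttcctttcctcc
HIST1H3E, chr6:26223928-26224177, plus strand: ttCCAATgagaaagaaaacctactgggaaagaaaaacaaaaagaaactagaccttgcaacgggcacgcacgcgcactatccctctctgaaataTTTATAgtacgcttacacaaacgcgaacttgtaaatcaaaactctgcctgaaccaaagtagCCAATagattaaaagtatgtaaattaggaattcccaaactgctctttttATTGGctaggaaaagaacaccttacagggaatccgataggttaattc
HIST1H4D, chr6:26189113-26189362, minus strand: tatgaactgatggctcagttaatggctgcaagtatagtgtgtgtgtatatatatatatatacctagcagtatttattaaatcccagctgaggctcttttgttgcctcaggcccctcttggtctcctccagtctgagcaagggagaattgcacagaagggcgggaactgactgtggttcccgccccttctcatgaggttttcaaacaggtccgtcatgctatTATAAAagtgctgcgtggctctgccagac

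RefSeq held a start for 43 of the 52 members. CCAAT, searched on both strands, lay in the 250 bases before the start of 36 of the 43 members, 83.7%, against 33.04% of all 27305 promoters in the table. All 5 H1, 10 H2A, 12 H2B and 8 H3 promoters held it, and 1 of 8 H4 promoters did, that of HIST1H4I. TATAAA, also searched on both strands, lay in 30 of the 43, 69.8%, against 11.1% of all promoters. The octamer ATTTGCAT, long known from H2B promoters, lay in 8 of 10 H2A promoters, 8 of 12 H2B promoters and none of the others, 16 of 43 or 37.2% against 1.66% of all promoters. TATAAA lay 25 to 35 bases before the start in 15 of the 24 promoters of members that fell at the end of treatment and in 10 of the 19 of members that did not pass. Among the 18 promoters without it there were HIST1H3E, where TATAAA lay 157 bases before the start, and HIST1H1B and HIST1H3C, which held none. The HIST1H3E gene is annotated from chr6:26224199, and the bases shown with its stem-loop begin at chr6:26225591. For HIST1H3H these positions are chr6:27810064 and chr6:27810511. The bases searched for HIST1H3E may therefore not be those before the start nearest its stem-loop. A match is a description of the letters and not a binding site.

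By the end of treatment the clustered histone messages were lower with palbociclib in every class. Their summed level was 1511, 1893 and 1167 CPM in palbociclib tumours 1, 2 and 3, against 3590, 2904 and 2716 CPM in vehicle tumours 1, 2 and 3. All 3 palbociclib tumours lay below all 3 vehicle tumours. The means were 1524 ± 363 CPM with palbociclib and 3070 ± 460 CPM with vehicle (SD, n = 3 each), a log2 ratio of -1.01. In these bulk tumours, fewer cells in S phase and less histone RNA per cell cannot be told apart.

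Each class sum was also lower. H1 messages summed to 268, 336 and 181 CPM with palbociclib, against 708, 523 and 525 CPM with vehicle, a log2 ratio of means of -1.16. H2A messages summed to 325, 408 and 253 CPM with palbociclib, against 695, 590 and 540 CPM with vehicle, a ratio of -0.89 on the log2 scale. In each of these classes the groups did not overlap. H2B messages, the class with the most members, summed to 507, 658 and 423 CPM with palbociclib, against 1192, 1014 and 955 CPM with vehicle (log2 ratio -0.99). H3 messages summed to 188, 227 and 115 CPM with palbociclib, against 532, 402 and 335 CPM with vehicle (log2 ratio -1.26). H4 messages summed to 223, 264 and 195 CPM with palbociclib, against 462, 374 and 362 CPM with vehicle (log2 ratio -0.81). In these 3 classes too, each palbociclib tumour lay below each vehicle tumour. The sums are given without a test.

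**Figure D1:**
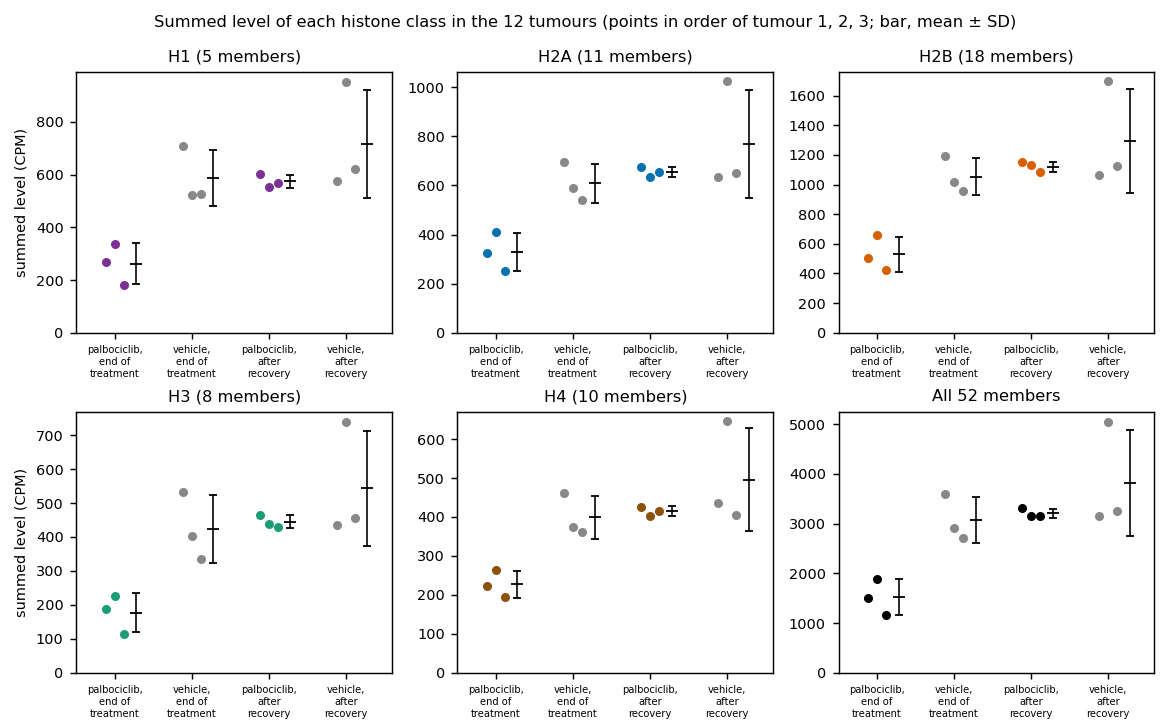
Summed CPM of the members of each histone class, and of all 52 members, in each of the 12 tumours, with the 4 groups along the horizontal axis, points for tumours and bars for the mean and SD. In every panel the 3 palbociclib tumours sit below the 3 vehicle tumours, and vehicle recovery tumour 2, at 5054 CPM for all members, sits above all others.

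The share of each class among the members' counts was as follows. H1 made up 17.0% of the members' counts on average with palbociclib and 19.0% with vehicle, with no overlap between the groups. H2A made up 21.6% with palbociclib and 19.9% with vehicle, and H4 made up 15.1% with palbociclib and 13.0% with vehicle, again without overlap. The shares of H2B, 34.8% with palbociclib and 34.4% with vehicle, and of H3, 11.4% with palbociclib and 13.7% with vehicle, overlapped between the groups. The members together took 0.159% of human counts with palbociclib and 0.307% with vehicle.

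Tested gene by gene at the end of treatment, 32 of the 52 members were lower with palbociclib and 0 were higher (edgeR quasi-likelihood test, Benjamini-Hochberg adjusted p under 0.05 over 18628 human genes). Over all genes tested, 1.84% passed, 1.7% lower and 0.14% higher. The median log2 fold change of the members was -1.14, against 0.0014 over all genes, and 50 members were below 0. Each palbociclib tumour lay below each vehicle tumour for 47 members, while 11.3% of all genes were separated in that way. For 1 member, HIST1H3E, each palbociclib tumour lay above each vehicle tumour, which 9.39% of all genes did. Palbociclib tumour 3 was the lowest of its group for 45 of 52 members, and vehicle tumour 1 was the highest of its group for 47.

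The count of calls depended on single libraries, and 8 of the 32 members passed whichever library was dropped (7 fits), namely HIST1H1A, HIST1H2AJ, HIST1H2BE, HIST1H2BF, HIST1H4A, HIST1H4C, HIST2H2AB and HIST2H2BF. With all libraries 343 of all genes passed. Without palbociclib tumour 1 the member count was 8, among 160 of all genes, and without palbociclib tumour 3 it was 13, among 173. It was 12 without vehicle tumour 1, among 262 of all genes, and 16 without vehicle tumour 2, among 196. None of the 32 changed sign in any of these fits. Palbociclib tumour 3 also had the highest share of mouse counts, 25.4%, against 17.0% and 17.6% in palbociclib tumours 1 and 2 and 15.5% to 17.4% in vehicle tumours. With the mouse share as a covariate 5 members passed, all lower, among 147 of all genes, and the members' median was -0.95, with 43 at an unadjusted p under 0.05. Mitochondrial rRNA took 0.521% to 1.33% of human counts in palbociclib tumours, against 0.858%, 4.61% and 10.6% in vehicle tumours 1, 2 and 3. Rows that name no gene took 53.1% to 53.8% of counts in palbociclib tumours, against 52.8%, 61.9% and 69.1% in vehicle tumours 1, 2 and 3. With vehicle tumours 2 and 3 left out together, 4 members passed among 95 of all genes, with a median of -1.41 against vehicle tumour 1 alone. With the share of unnamed rows as a covariate 43 members passed among 552 of all genes, with a median of -1.33. HIST1H1A, HIST1H2BF and HIST1H4A alone of the 32 passed in all 17 alternatives.

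**Figure D2:**
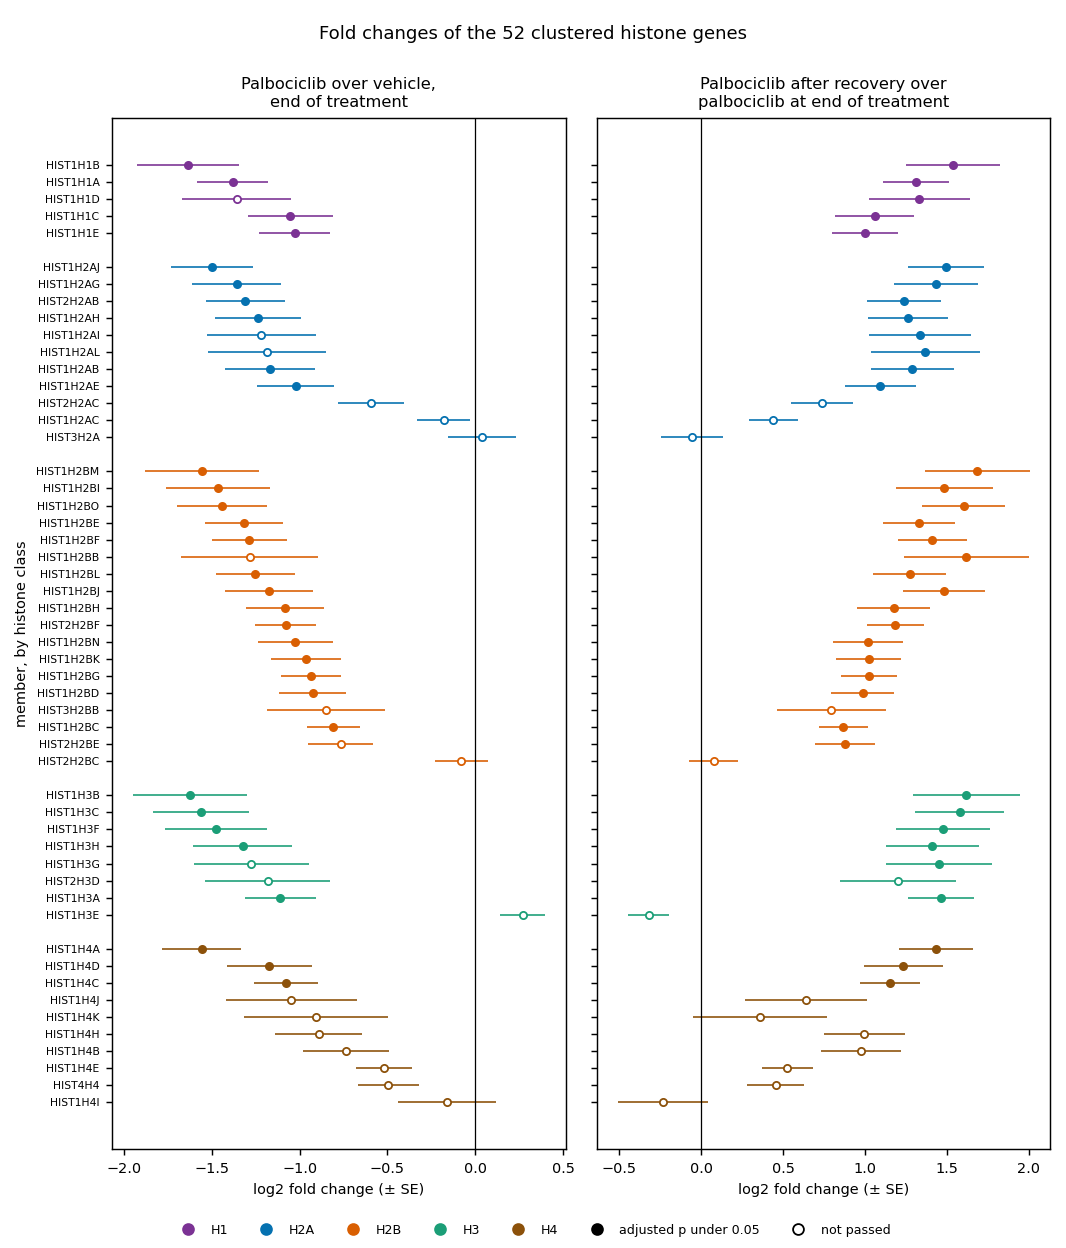
Log2 fold change with its standard error for each of the 52 members by class, palbociclib over vehicle at the end of treatment in the first panel and palbociclib recovery over palbociclib in the second, filled where the adjusted p was under 0.05. At the end of treatment 32 members are filled and all of them lie below 0, and in the second panel 38 are filled and all lie above 0. Both panels use the same palbociclib tumours.

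Linker histone H1 binds the DNA where it enters and leaves the nucleosome. Of its 5 members 4 fell, and the class median was -1.36 on the log2 scale. HIST1H1A (chr6:26017085-26017732, 1 annotated transcript) had 23.9, 27.4 and 15.9 CPM with palbociclib, against 72.0, 49.4 and 53.0 CPM with vehicle. The groups did not overlap and the message was 2.60-fold lower, a log2 fold change of -1.38 ± 0.20 (SE; edgeR quasi-likelihood adjusted p = 0.00184). HIST1H1B had the lowest fold change of all members, with 26.8, 34.1 and 13.1 CPM in palbociclib tumours, against 88.4, 68.1 and 72.9 CPM in vehicle tumours. Its log2 fold change was -1.64 ± 0.29 (edgeR adjusted p = 0.011), though without palbociclib tumour 1 its adjusted p was 0.0549.

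HIST1H1C, whose message is also known in a polyadenylated form, had 100.9, 121.3 and 63.4 CPM with palbociclib, against 249.5, 174.1 and 169.1 CPM with vehicle. HIST1H1E had 97.6, 124.2 and 76.9 CPM with palbociclib, against 233.5, 187.3 and 187.8 CPM with vehicle. In both genes the groups were separate, with log2 fold changes of -1.05 ± 0.24 and -1.03 ± 0.20 and edgeR adjusted p of 0.0467 and 0.0158. HIST1H1D had 19.1, 28.5 and 11.7 CPM with palbociclib, against 64.6, 44.5 and 42.1 CPM with vehicle. It did not pass, at -1.36 ± 0.31 on the log2 scale (edgeR adjusted p = 0.0524), although its groups did not overlap.

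H2A pairs with H2B in dimers that flank the H3-H4 tetramer in the nucleosome. Of the 11 H2A members 6 fell, and the class median was -1.18. HIST1H2AJ had 18.6, 27.1 and 11.4 CPM with palbociclib, against 54.6, 54.9 and 51.1 CPM with vehicle. The vehicle tumours were close together and all far above the palbociclib tumours, and the log2 fold change was -1.50 ± 0.23 (edgeR adjusted p = 0.00359). Its transcript shares 83.7% of its 50-base windows with HIST1H2AI and none with other clustered histone rows, so reads could be split between HIST1H2AJ and HIST1H2AI. HIST1H2AI itself had a log2 fold change of -1.22 ± 0.31 and did not pass (edgeR adjusted p = 0.0932).

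HIST1H2AG had 36.4, 52.2 and 26.7 CPM with palbociclib, against 114.7, 97.5 and 82.8 CPM with vehicle, a log2 fold change of -1.36 ± 0.26 (edgeR adjusted p = 0.015). HIST2H2AB had 10.1, 12.9 and 7.2 CPM with palbociclib, against 28.8, 23.8 and 21.9 CPM with vehicle, a log2 fold change of -1.31 ± 0.23 (edgeR adjusted p = 0.00601). Both were separate between the groups. HIST1H2AH, HIST1H2AB and HIST1H2AE also fell, with log2 fold changes of -1.24, -1.17 and -1.02. The members that did not pass were HIST1H2AI, HIST1H2AL at -1.18, HIST2H2AC at -0.59, HIST1H2AC at -0.18 and HIST3H2A at 0.04.

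H2B is the class with the most calls, 14 of 18 members, with a median of -1.08. HIST2H2BF had 56.5, 75.0 and 51.1 CPM with palbociclib, against 144.4, 116.0 and 125.2 CPM with vehicle. HIST1H2BF had 12.9, 16.4 and 8.9 CPM with palbociclib, against 37.8, 24.7 and 30.3 CPM with vehicle. Neither gene's groups overlapped, and the log2 fold changes were -1.08 ± 0.18 for HIST2H2BF and -1.29 ± 0.21 for HIST1H2BF (edgeR adjusted p = 0.00366 and 0.00441). HIST1H2BM, at a low level, had 3.5, 6.3 and 3.2 CPM with palbociclib, against 15.03, 11.3 and 11.4 CPM with vehicle, a log2 fold change of -1.56 ± 0.33 (edgeR adjusted p = 0.023). HIST1H2BC, whose message is also known in a polyadenylated form, had 60.5, 76.5 and 54.8 CPM with palbociclib, against 110.9, 116.8 and 107.9 CPM with vehicle, a smaller change of -0.81 ± 0.15 that passed (edgeR adjusted p = 0.0104). The other 10 that fell were HIST1H2BI at -1.47, HIST1H2BO at -1.44, HIST1H2BE at -1.32, HIST1H2BL at -1.25, HIST1H2BJ at -1.17, HIST1H2BH at -1.08, HIST1H2BN at -1.03, HIST1H2BK at -0.96, HIST1H2BG at -0.94 and HIST1H2BD at -0.93.

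The 4 H2B members that did not pass were HIST1H2BB at -1.29 ± 0.39, HIST3H2BB at -0.85 ± 0.34, HIST2H2BE at -0.77 ± 0.18 and the pseudogene HIST2H2BC at -0.08 ± 0.15. HIST2H2BE had 70.7, 82.3 and 66.0 CPM with palbociclib, against 139.6, 120.3 and 112.3 CPM with vehicle, and its adjusted p was 0.0512 (edgeR). HIST2H2BC had 14.9, 14.9 and 16.6 CPM with palbociclib, against 14.0, 17.3 and 18.0 CPM with vehicle, so its groups overlapped. The annotation of HIST2H2BC runs 5804 bases past the stem-loop and overlaps HIST2H2BD.

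H3 carries the lysine residues whose methylation and acetylation mark active and silent chromatin. Of its 8 members 5 fell, with a class median of -1.30. HIST1H3B had 41.6, 53.1 and 21.1 CPM with palbociclib, against 154.5, 118.0 and 83.6 CPM with vehicle, and the groups did not overlap. Its log2 fold change was -1.62 ± 0.33 (edgeR adjusted p = 0.0267), which no longer passed without palbociclib tumour 1, palbociclib tumour 3, vehicle tumour 1 or vehicle tumour 2, with adjusted p of 0.105, 0.0539, 0.0929 and 0.0755 in that order. HIST1H3C had 15.7, 20.5 and 8.7 CPM with palbociclib, against 48.3, 45.0 and 38.5 CPM with vehicle, a log2 fold change of -1.56 ± 0.27 (edgeR adjusted p = 0.00911). HIST1H3A had 15.004, 16.7 and 11.5 CPM with palbociclib, against 40.1, 25.5 and 27.1 CPM with vehicle, a log2 fold change of -1.11 ± 0.20 (edgeR adjusted p = 0.00906). In both, every palbociclib tumour was low and every vehicle tumour high.

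HIST1H3F at -1.47 and HIST1H3H at -1.33 were the other H3 members that fell. HIST1H3G at -1.27 and HIST2H3D at -1.18 did not pass. The HIST2H3D transcript shares 80.4% of its 50-base windows with the HIST2H3A and HIST2H3C rows and others that lay below the count rule. HIST1H3E went the other way, with 24.5, 25.9 and 25.6 CPM with palbociclib, against 23.7, 18.0 and 21.1 CPM with vehicle. Its palbociclib tumours were just above its vehicle tumours, and the log2 fold change of 0.27 ± 0.13 did not pass (edgeR adjusted p = 0.516).

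H4 forms the tetramer with H3. Of its 10 members 3 fell, and the class median was -0.90. HIST1H4A had 8.8, 7.1 and 5.1 CPM with palbociclib, against 26.2, 18.4 and 17.0 CPM with vehicle. The groups were well apart, and HIST1H4A, 2.95-fold lower with a log2 fold change of -1.56 ± 0.23, had the smallest adjusted p of all members (edgeR, 0.00169). HIST1H4C had 40.7, 46.3 and 28.9 CPM with palbociclib, against 94.4, 81.5 and 68.4 CPM with vehicle, a log2 fold change of -1.08 ± 0.18 (edgeR adjusted p = 0.00549). HIST1H4D had 23.3, 33.4 and 15.1 CPM with palbociclib, against 66.4, 49.3 and 45.4 CPM with vehicle, a log2 fold change of -1.17 ± 0.24 (edgeR adjusted p = 0.0236). Both were separate between the groups.

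The 7 H4 members that did not pass were HIST1H4J at -1.05, HIST1H4K at -0.91, HIST1H4H at -0.89, HIST1H4B at -0.74, HIST1H4E at -0.52, HIST4H4 at -0.50 and HIST1H4I at -0.16. HIST1H4E had 68.5, 72.7 and 74.6 CPM with palbociclib, against 109.1, 96.5 and 103.8 CPM with vehicle. It was lower in all 3 palbociclib tumours, by a log2 fold change of -0.52 ± 0.16 that did not pass (edgeR adjusted p = 0.158). HIST1H4J and HIST1H4K were at 0.5 to 3.1 CPM in all 12 tumours and share windows of 50 bases with other clustered histone rows, 81.2% of the windows in HIST1H4J and all of them in HIST1H4K, so HIST1H4K cannot be told from HIST1H4J by such windows, and HIST1H4J can only in part. HIST1H4I, also low, had 4.9, 3.8 and 5.3 CPM with palbociclib, against 6.0, 3.9 and 5.7 CPM with vehicle, and its groups overlapped.

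**Figure D3:**
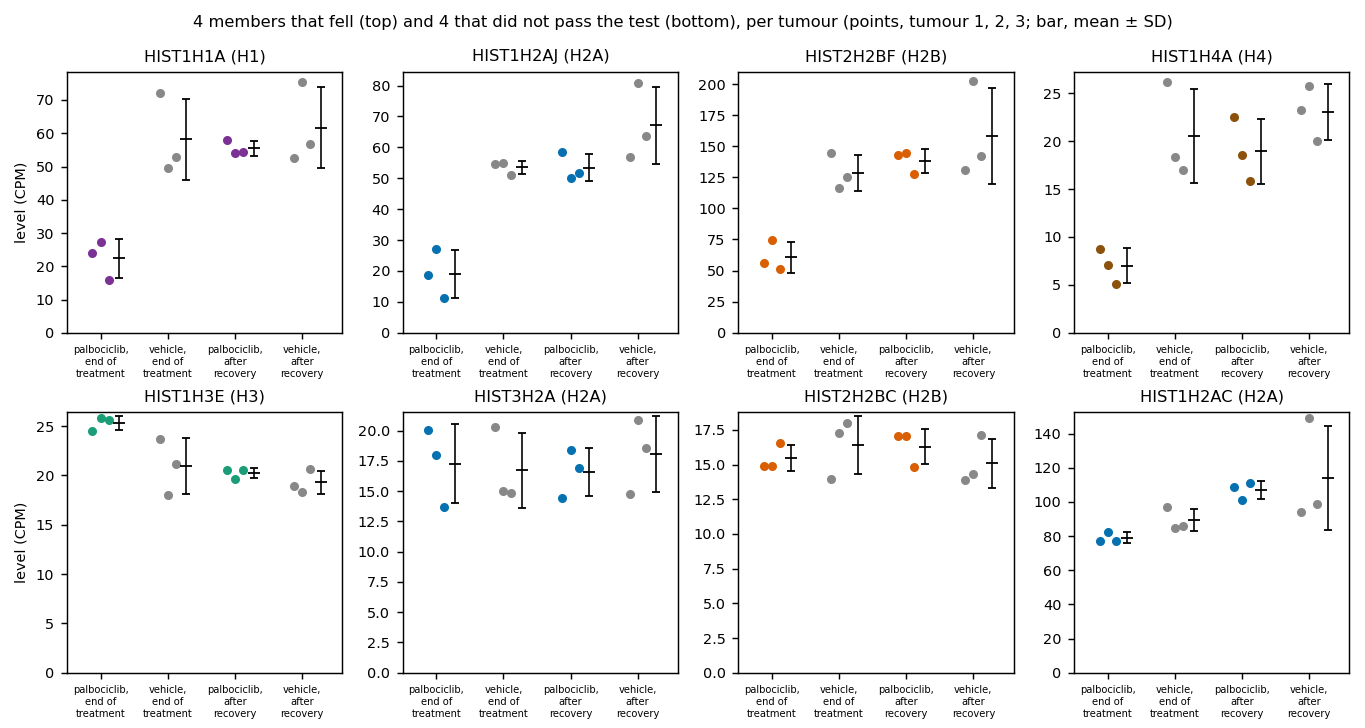
CPM of 8 members in each of the 12 tumours, with the 4 groups along the horizontal axis, points for tumours and bars for the mean and SD. The 4 members in the upper row (HIST1H1A, HIST1H2AJ, HIST2H2BF and HIST1H4A) are lower in the 3 palbociclib tumours than in the other 9, while of the 4 in the lower row HIST1H3E, HIST3H2A and HIST2H2BC hold similar levels in all groups and HIST1H2AC is lower by a log2 fold change of -0.18 that did not pass.

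The members nearest to no change at the end of treatment were HIST1H3E, HIST3H2A, HIST2H2BC, HIST1H4I and HIST1H2AC, singled out after their values were seen. HIST3H2A had 20.1, 18.0 and 13.7 CPM with palbociclib, against 20.3, 15.02 and 14.8 CPM with vehicle. HIST1H2AC had 77.1, 82.6 and 77.0 CPM with palbociclib, against 96.9, 85.0 and 86.1 CPM with vehicle. The groups overlapped in HIST3H2A, while in HIST1H2AC the palbociclib tumours lay just below the vehicle tumours. All 5 had an annotated transcript that ran on for 200 bases or more past the stem-loop, 1862 bases in HIST1H3E, 390 in HIST3H2A, 5804 in HIST2H2BC, 212 in HIST1H4I and 1128 in HIST1H2AC.

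Such a long annotated end was shared by 19 members, and the limit of 200 bases was chosen after the values were seen, so the split is a description with no test. Of the 19, 8 fell, and their log2 fold changes had a median of -0.89 and a range of -1.36 to 0.27. Of the other 33, 24 fell, with a median of -1.18 and a range of -1.64 to -0.59. The members without a stem-loop match are all among these 33, and their length past a stem-loop is unknown. The split is therefore not one of long against short ends. HIST1H2AG at -1.36 and HIST1H2BF at -1.29 were among the 19, with 1761 and 732 annotated bases past the stem-loop, so a long annotated end did not go with a small change in every member. The 6 members listed from background knowledge as also polyadenylated (HIST1H1C, HIST1H2AC, HIST1H2BC, HIST1H2BD, HIST1H2BK and HIST2H2BE) had a median of -0.87 with 4 that fell, and the other 46 a median of -1.18 with 28 that fell.

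**Figure D4:**
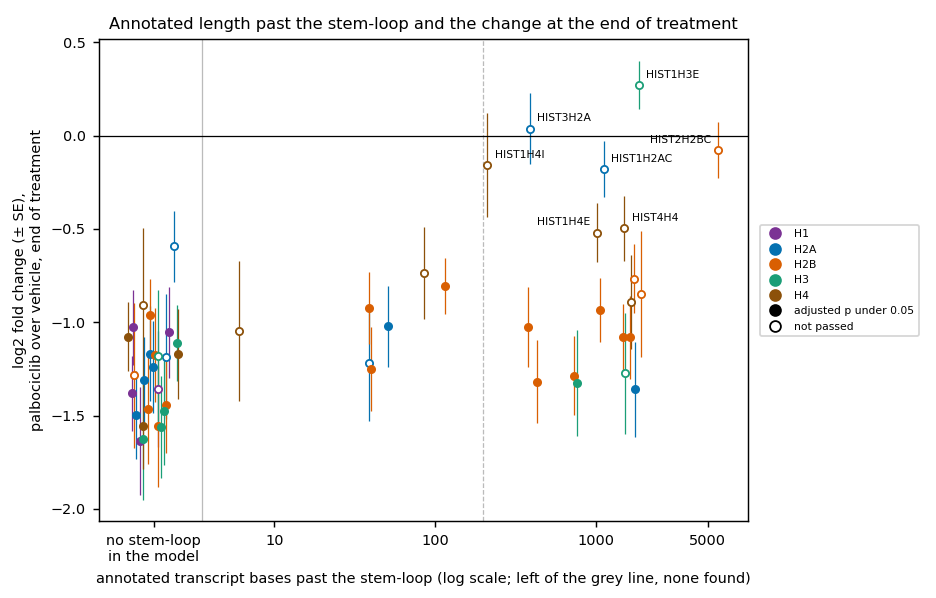
Annotated bases past the stem-loop run along the horizontal axis, with a dashed line at 200 bases. The vertical axis gives the log2 fold change of palbociclib over vehicle at the end of treatment. Members without a matched stem-loop are drawn left of a grey line, where their horizontal position has no meaning. Members right of the line span -1.36 to 0.27, and those near 0 or above it are all right of the line.

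By cluster, the 43 HIST1 members had a median of -1.17 with 30 that fell, and the 6 HIST2 members a median of -0.92 with 2 that fell. Neither HIST3 member passed, and HIST4H4, at -0.50 ± 0.17, did not pass (edgeR adjusted p = 0.264). HIST4H4 had 21.2, 25.2 and 18.4 CPM with palbociclib, against 33.01, 28.8 and 29.5 CPM with vehicle, so its tumours were separate by group. Among the members with a RefSeq start, 5 pairs of an H2A and an H2B member start 230 to 248 bases apart on opposite strands. Such a pair shares the bases between its starts, as shown above for HIST1H2BJ and HIST1H2AG. In 3 of the pairs both genes lay below -1, namely HIST1H2AJ at -1.50 with HIST1H2BM at -1.56, HIST1H2BJ at -1.17 with HIST1H2AG at -1.36 and HIST1H2BL at -1.25 with HIST1H2AI at -1.22. HIST2H2BE at -0.77 and HIST2H2AC at -0.59 were both nearer to 0. In the HIST3 pair HIST3H2A was at 0.04 and HIST3H2BB at -0.85. The 9 members without a RefSeq start were not searched for pairs. By annotation, HIST1H2BC (minus strand, to chr6:26123926) and HIST1H2AC (plus strand, from chr6:26124145) are likewise placed, at -0.81 and -0.18. So are HIST1H2BG at -0.94 with HIST1H2AE at -1.02 and HIST1H2BK at -0.96 with HIST1H2AH at -1.24.

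After recovery the histone messages of the palbociclib arm were near those of the vehicle arm. The members summed to 3318, 3155 and 3155 CPM in palbociclib recovery tumours, against 3146, 5054 and 3258 CPM in vehicle recovery tumours. The groups overlapped, with means of 3209 ± 94.4 CPM and 3819 ± 1071 CPM (SD, n = 3 each). Without vehicle recovery tumour 2 the ratio of the means was 1.00, against 0.84 with it. That tumour was the highest of its group for 50 of 52 members.

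None of the 52 members passed in this comparison, where 0.00537% of all genes did, 0.00537% lower and 0.0% higher (edgeR quasi-likelihood test). At an unadjusted p under 0.05 there were likewise 0 members, against 8.66% of all genes, and DESeq2 called 0 members among 19 genes. With no low-count filter 794 of all genes passed and again 0 members, though 10 members had an unadjusted p under 0.05 (edgeR). The median log2 fold change was -0.25, and 0.02 without vehicle recovery tumour 2, against -0.0019 over all genes. With all libraries, 49 members were below 0, against 50.3% of all genes. Each palbociclib recovery tumour lay below each vehicle recovery tumour for 2 members, HIST1H1B and HIST1H4D, against 5.51% of all genes, and above for none, against 6.32%. HIST1H1B had 71.4, 72.0 and 71.3 CPM in palbociclib recovery tumours, against 73.8, 127.3 and 86.5 CPM in vehicle recovery tumours.

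The class sums after recovery overlapped in all 5 classes. H1 summed to 601, 553 and 569 CPM in palbociclib recovery tumours, against 576, 951 and 621 CPM in vehicle recovery tumours. H3 summed to 466, 439 and 430 CPM in palbociclib recovery tumours, against 436, 737 and 456 CPM in vehicle recovery tumours. The log2 ratios of the means were -0.32 for H1, -0.23 for H2A, -0.21 for H2B, -0.29 for H3 and -0.26 for H4. Without vehicle recovery tumour 2 they were -0.06 for H1, 0.03 for H2A, 0.04 for H2B, -0.0034 for H3 and -0.02 for H4. H1 made up 17.9% of the members' counts in palbociclib recovery tumours and 18.7% in vehicle recovery tumours, without overlap. The shares of the other classes overlapped.

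Within the palbociclib arm, the messages were higher after recovery than at the end of treatment for 38 of 52 members, and lower for 0 (edgeR quasi-likelihood test, adjusted p under 0.05). Over all genes 2.82% passed in this comparison, 2.36% higher and 0.467% lower. The median log2 fold change was 1.22, against -0.01 over all genes. This comparison uses the same palbociclib tumours as that with vehicle at the end of treatment, so the results of the 2 comparisons are not independent. All 5 H1 members rose (median 1.31), as did 8 of 11 H2A members (1.26), 16 of 18 H2B members (1.18), 6 of 8 H3 members (1.46) and 3 of 10 H4 members (0.81).

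HIST1H3A had the smallest adjusted p, with 45.5, 39.1 and 34.8 CPM in palbociclib recovery tumours, against 15.004, 16.7 and 11.5 CPM in palbociclib tumours. All recovery tumours were higher, with a log2 fold change of 1.46 ± 0.20 (edgeR adjusted p = 0.000993). HIST2H2BF had 143.3, 144.2 and 127.4 CPM in palbociclib recovery tumours, against 56.5, 75.0 and 51.1 CPM in palbociclib tumours, a log2 fold change of 1.19 ± 0.18 (edgeR adjusted p = 0.00184). HIST1H2BM had the highest fold change, 1.69 ± 0.32 on the log2 scale (edgeR adjusted p = 0.0109). HIST1H1A had 58.0, 54.1 and 54.3 CPM in palbociclib recovery tumours, against 23.9, 27.4 and 15.9 CPM in palbociclib tumours, a log2 fold change of 1.31 ± 0.20.

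Each palbociclib recovery tumour lay above each palbociclib tumour for 45 members, against 14.9% of all genes, and below for 1, HIST1H3E, against 14.2%. HIST1H3E had 20.6, 19.6 and 20.6 CPM in palbociclib recovery tumours, against 24.5, 25.9 and 25.6 CPM in palbociclib tumours, and its log2 fold change of -0.32 ± 0.13 did not pass (edgeR adjusted p = 0.249). With all libraries 526 of all genes passed. The 38 calls of members fell to 14 without palbociclib tumour 1, among 205 of all genes, and to 22 without palbociclib tumour 3, among 233. They fell to 22 without palbociclib recovery tumour 1, among 280 of all genes, and to 23 without palbociclib recovery tumour 2, among 266. The 14 members that passed in all 7 of those fits that leave out 1 library also passed in all 16 alternatives. All 38 kept their sign.

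The test of whether the palbociclib effect itself differed between the stages called none of the members. Over all genes 0.22% passed that test, all of them with a positive difference, the effect after recovery minus that at the end of treatment, and 0.0% passed with a negative one (edgeR quasi-likelihood test). The median difference was 0.89 on the log2 scale, against 0.01 over all genes. An unadjusted p under 0.05 was found for 36 members, against 5.22% of all genes, and DESeq2 called 2 members among 92 genes. The smallest adjusted p was that of HIST1H2BF, 0.127 (edgeR), with a difference of 1.32 ± 0.29. Without vehicle recovery tumour 2, 17 members passed, among 161 of all genes.

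Between the vehicle groups, vehicle recovery over vehicle at the end of treatment, none of the members passed, and 0.0% of all genes did (edgeR quasi-likelihood test). An unadjusted p under 0.05 was found for 2 members, against 14.4% of all genes, and DESeq2 called 0 members among 84 genes. The median log2 fold change was 0.32, and 0.04 without vehicle recovery tumour 2, against -0.0048 over all genes, with 48 members above 0, from -0.17 in HIST1H4J to 0.50 in HIST1H4B. HIST1H4B had 60.0, 92.9 and 51.6 CPM in vehicle recovery tumours, against 60.6, 40.5 and 43.2 CPM in vehicle tumours, and its groups overlapped.

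Among 20 genes that transcribe, process or degrade histone messages, 2 fell at the end of treatment and none rose, with a median of -0.12. SLBP, which binds the stem-loop and whose protein is present mainly in S phase, had 29.2, 32.6 and 26.1 CPM with palbociclib, against 42.3, 43.2 and 43.8 CPM with vehicle, a log2 fold change of -0.56 ± 0.13 (edgeR adjusted p = 0.0396). CASP8AP2, needed for histone gene transcription, had 49.6, 51.8 and 48.6 CPM with palbociclib, against 70.7, 65.4 and 74.1 CPM with vehicle, a log2 fold change of -0.49 ± 0.10 (edgeR adjusted p = 0.0212). In both the groups were separate, but SLBP passed in 2 of 7 fits that left out 1 library, those without palbociclib tumour 2 (0.0476) and vehicle recovery tumour 2 (0.00393), with edgeR adjusted p of up to 0.287 (without palbociclib tumour 3) in the rest. CASP8AP2 likewise passed in 2 of 7, without vehicle tumour 2 (0.0442) and without vehicle recovery tumour 2 (0.00301), with edgeR adjusted p of up to 0.148 (without palbociclib tumour 3) in the rest. NPAT at -0.07, the U7 particle genes LSM10 at 0.38 and LSM11 at -0.30, the processing factor ZNF473 at -0.41 and the exonuclease ERI1 at -0.21 did not pass. SLBP rose within the palbociclib arm after recovery, by 0.60 on the log2 scale (edgeR adjusted p = 0.0195), the only one of the 20 that passed there.

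Of 21 histone chaperone genes 6 fell at the end of treatment, with a median of -0.31. HJURP, the chaperone of the centromeric H3 variant, had 4.8, 6.6 and 3.6 CPM with palbociclib, against 29.4, 25.7 and 19.7 CPM with vehicle, a log2 fold change of -2.33 (edgeR adjusted p = 0.000213). CHAF1A, the large subunit of chromatin assembly factor CAF-1, fell by 0.73 on the log2 scale, and ASF1B, an H3-H4 chaperone of dividing cells, fell by 1.54. NASP, MMS22L and TONSL fell by 0.56 to 0.69. Of 7 fits that left out 1 library, CHAF1A passed in 6, ASF1B and MMS22L in 4 each, NASP in 3 and TONSL in 1. Without palbociclib tumour 3 none of these 5 passed, with edgeR adjusted p of 0.0643 for CHAF1A, 0.0863 for ASF1B, 0.0916 for MMS22L and 0.216 for NASP and TONSL. Those but CHAF1A were also lost without palbociclib tumour 1, ASF1B, NASP and TONSL without vehicle tumour 1, NASP, MMS22L and TONSL without vehicle tumour 2, and TONSL also without palbociclib tumour 2 or vehicle tumour 3. HIRA, which deposits H3 outside S phase, at -0.34 and SUPT16H, a subunit of FACT, at -0.12 did not pass.

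Histone variants encoded apart from the clusters gave 2 that fell among 11 tested of 12 listed, with a median of -0.42. CENPA, the centromeric H3 variant, had 1.9, 3.4 and 1.1 CPM with palbociclib, against 16.8, 14.6 and 12.8 CPM with vehicle, a log2 fold change of -2.82 (edgeR adjusted p = 0.000403). H2AFX, the H2A variant phosphorylated at DNA breaks, had 15.3, 15.4 and 12.4 CPM with palbociclib, against 49.5, 44.4 and 40.4 CPM with vehicle, a log2 fold change of -1.64 (edgeR adjusted p = 0.000879). Both were far lower in all 3 palbociclib tumours. H3F3A at 0.04 and H3F3B at -0.21, the genes of the replacement H3, did not pass, nor did H2AFZ at -0.78 ± 0.29, H1FX at -0.56, H1F0 at -0.46, H2AFV at -0.42, H2AFY2 at -0.19, H2AFY at -0.155 and H2AFJ at -0.04.

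Of 18 listed S phase and proliferation genes 8 fell, with a median of -0.90 beside the members' -1.14. The 10 that did not pass, all below 0, were PCNA, MCM2, MCM3, MCM4, MCM5, MCM6, MCM7, GINS2, TYMS and CDK2. MKI67, a marker of dividing cells, had 37.6, 56.0 and 28.8 CPM with palbociclib, against 184.9, 271.4 and 199.8 CPM with vehicle, and a log2 fold change of -2.42 (edgeR adjusted p = 9.13e-05). CCNE2, a cyclin E that partners CDK2, had 4.6, 6.3 and 4.2 CPM with palbociclib, against 12.4, 11.6 and 11.4 CPM with vehicle. Its log2 fold change was -1.23 (edgeR adjusted p = 0.0018). In both genes the groups were far apart. CCNA2 at -1.95, the nucleotide reductase subunit RRM2 at -1.90, the licensing factor CDC6 at -1.48, CCNE1 at -1.28, the transcription factor E2F1 at -1.27 and CDC45 of the replicative helicase at -1.16 fell as well. Of 7 fits that left out 1 library, E2F1 passed in 4 and CCNE1 and CDC45 in 2 each. All 3 were lost without palbociclib tumour 1, palbociclib tumour 3 or vehicle tumour 1, with edgeR adjusted p of up to 0.121 for E2F1, 0.133 for CCNE1 and 0.160 for CDC45, and CCNE1 and CDC45 also without vehicle tumour 2 or 3. No gene of these 4 lists passed after recovery, where the lists' medians lay between -0.23 and -0.13.

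**Figure D5:**
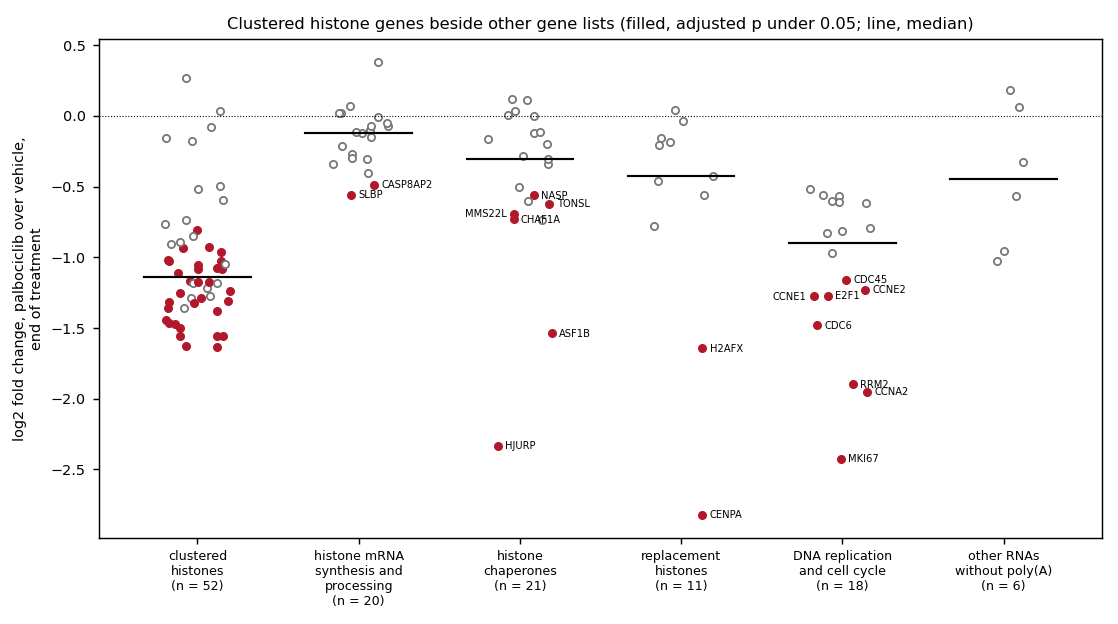
Log2 fold change of palbociclib over vehicle at the end of treatment for each tested gene of 6 lists, the 52 clustered histone genes, 20 processing genes, 21 chaperones, 11 replacement histones, 18 cell cycle genes and 6 other RNAs without a poly(A) tail. The medians are -1.14, -0.12, -0.31, -0.42, -0.90 and -0.45, with CENPA at -2.82 the lowest point.

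How far a library holds RNA without a poly(A) tail bears on the level of most members. Whether the library kit selected poly(A) RNA is unstated in the labels. Of 19 listed small nuclear, Cajal body and other RNAs that lack a tail, 9 were at 0 in all 12 libraries and 6 could be tested. Their sum was 2151, 1982 and 1733 CPM in palbociclib tumours, against 3866, 2608 and 2099 CPM in vehicle tumours, so the groups overlapped, and 0 of the 6 passed. With that sum as a covariate, 7 members passed at the end of treatment, all lower, among 230 of all genes, and the members' median was -0.80.

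The 38 rows below the count rule comprised 18 pseudogenes and 20 coding genes. No row below the rule reached 10 counts in more than 2 files, and the largest total over the 12 libraries was 64, in HIST2H2BA. In 11 rows every library was at 0, among them the coding genes HIST1H2AK, HIST1H2AM, HIST1H3D, HIST1H3I, HIST1H4F, HIST1H4G, HIST1H4L and HIST2H3PS2. Another annotated gene overlaps 17 of the 38 rows, HIST1H2AK, HIST1H2AM, HIST1H3D and HIST2H3PS2 among them. How reads in such overlaps were counted is unstated, so a count of 0 there does not show that the gene was silent. HIST2H2AA3, HIST2H3A, HIST2H3C, HIST2H4A and HIST2H4B share all of their 50-base windows with another clustered histone row, and how reads shared between copies were counted is unstated in the labels. Their low counts therefore say nothing of their expression. Among the members 25 share no such window with another row, and 5 share 50% or more, namely HIST1H4K, HIST1H2AJ, HIST1H4J, HIST2H3D and HIST1H2AI. The fit with summed copies joined HIST2H3A and HIST2H3C to HIST2H3D but summed neither HIST1H2AI with HIST1H2AJ nor HIST1H4J with HIST1H4K.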

How the data were processed

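RNA was measured in 12 tumours, 3 per group. Per the labels' protocols, RNA was extracted with RNeasy from homogenised tumours and prepared with a TruSeq RNA kit. STAR, cutadapt, edgeR and CASAVA 1.8, with the builds GRCm38 and GRCh38, are named in the submitters' processing notes, without further versions. The authors deposited raw read counts per gene for human and mouse genes together, 1 file per tumour. In each file 4 rows name no gene and hold 37.0% to 69.1% of the counts, and they were left out. Rows repeated under the same identifier (484 identifiers, 713 extra rows, all identical) were used once.

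Symbols came from GENCODE 29 and matched 57980 of 58243 human identifiers. The 12 libraries were fitted together with edgeR 4.0.16 (R 4.3.3): 4 group means, human counts as library size, TMM scaling, filterByExpr with a minimum count of 10 and total of 15, and a quasi-likelihood test. P-values were adjusted by Benjamini-Hochberg over the 18628 genes tested, which included all 52 members, and a gene is said to have passed, risen or fallen at an adjusted p under 0.05. CPM are counts scaled to the TMM-adjusted human total of the library. The fit was tested on simulated counts. The depth of 6613880 to 12352064 human counts sets the precision for low genes such as HIST1H4K, and nothing in the labels says that the tumours came from separate mice, so each p-value speaks of the spread among the tumours at hand, which may be technical. Promoters were from RefSeq (GRCh38.p14), transcripts from GENCODE 29 (GRCh38). The members, the gene lists and the tests were chosen with earlier results of these data known. The plan was to name, per class, the 4 members with the highest mean CPM, members that passed in any comparison (up to 30 by smallest p) and those with the highest and lowest fold change. It also held 7 processing genes, each replacement histone tested and, of the other lists, the 4 genes with the smallest p and those that passed. The text in the end names all 52 members at the end of treatment. Members near no change, and HIST1H4J, HIST1H4K and the members of the gene pairs, were added after their values were seen. Alternatives were DESeq2 1.42.0, RLE scaling, other filters, covariates, summed copies and leaving out libraries, those without vehicle tumours 2 and 3 together included, which held mitochondrial rRNA at 4.61% and 10.6% of their human counts.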

Additional observations from a re-analysis of the deposited data

Results flagged for a closer look

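No clustered histone gene is listed here, and 4 genes of the context lists are, because the palbociclib effect after recovery differed from that at the end of treatment by a test of the difference itself (edgeR quasi-likelihood test, Benjamini-Hochberg adjusted). The difference, recovery effect minus end-of-treatment effect, was 2.14 on the log2 scale for MKI67 (adjusted p = 0.0118), 2.63 for CENPA (edgeR adjusted p = 0.0266), 1.86 for HJURP (edgeR adjusted p = 0.0391) and 1.31 for CCNE2 (edgeR adjusted p = 0.0495). With 3 tumours in each group, single tumours were not screened for standing apart within their group.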

How the results depend on the processing

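Leaving out 1 library at a time, the count of members lower at the end of treatment (32) lay between 8, among 160 of all genes, and 38, among 748. That higher in palbociclib recovery than in palbociclib tumours (38) lay between 14, among 205 of all genes, and 45, among 1425. That in the test of the difference (0) lay between 0 and 17, the 17 among 161 of all genes. The counts after recovery and between vehicle groups stayed at 0. With other settings, the 32 became 5 with the mouse share as covariate, 7 with the sum of RNAs without a poly(A) tail as covariate and 4 without vehicle tumours 2 and 3 together, where a lone vehicle tumour is assumed to vary like the other groups, and it was 29 to 43 under the other settings. The members' median, -1.14, was -0.95, -0.80 and -1.41 under those 3 settings, where 147, 230 and 95 of all genes passed, against 343. The 0 of the difference became 29 with no low-count filter, among 320 of all genes. It became 10 with the share of unnamed rows as covariate, among 107 of all genes, and 2 with DESeq2, among 92. The 0 between vehicle groups became 1 with no filter, among 1124 of all genes. The cause was not tested. The log2 ratio of the H2A sums after recovery lay between -0.36 and 0.026 and that of the H2B sums between -0.33 and 0.035, positive without vehicle recovery tumour 2 alone.

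Of 2780 values of single genes, 56 changed sign, none of a gene that passed, 336 no longer passed and 107 newly passed. With the mouse share as covariate, the values after recovery became 0.086 for HIST1H1A and 0.10 for HIST1H4C. With the RNAs without a poly(A) tail as covariate, values at the end of treatment became 0.085 for H2AFJ, 0.030 for H2AFY, 0.036 for H2AFY2, 0.017 for H3F3B, 0.028 for HIST1H2AC and 0.037 for NPAT. With the share of unnamed rows, they became -0.064 for H3F3A, 0.044 for HIST2H2BC, -0.087 for HIST3H2A and -0.079 for LSM10 at the end of treatment, and 0.048 for HIST1H2AC and 0.014 for HIST1H4C after recovery. In the difference they became 0.085 for HIST1H4I, -0.0078 for HIST2H2BC and 0.064 for HIST3H2A, and between vehicle groups -0.24 for HIST1H1A, -0.22 for HIST1H1D, -0.16 for HIST1H2BM, -0.092 for HIST1H3G, -0.024 for HIST1H4B, -0.039 for HIST2H2AC, 0.095 for HIST2H2BC and -0.14 for HIST3H2A. Without vehicle tumours 2 and 3, they became -0.12 for H3F3A, 0.14 for HIST2H2BC and -0.23 for HIST3H2A at the end of treatment, 0.12 for HIST1H4I, -0.033 for HIST2H2BC and 0.11 for HIST3H2A in the difference, and -0.22 for HIST1H1A, 0.11 for HIST2H2BC and -0.16 for HIST3H2A between vehicle groups.

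Leaving out 1 library, the values at the end of treatment lay between -0.084 and 0.21 for HIST3H2A, -0.14 and 0.0055 for NPAT, -0.14 and 0.19 for H2AFJ and -0.030 and 0.14 for H3F3A. Within the palbociclib arm they lay between -0.20 and 0.067 for HIST3H2A and -0.0050 and 0.61 for HIST1H4K, in the difference between -0.39 and 0.082 for HIST1H4I, and between vehicle groups from -0.096 to 0.27 for HIST1H1A and -0.029 to 0.28 for HIST3H2A. After recovery they lay between -0.26 and 0.023 for HIST1H1A, -0.22 and 0.15 for HIST1H2AC, -0.57 and 0.097 for HIST1H2BM, -0.27 and 0.041 for HIST1H4C and -0.60 and 0.020 for HIST2H3D. No paired analysis was possible because the labels give the tumours no replicate numbers that groups share. Depth limits HIST1H4J, HIST1H4K and HIST1H4I most, and intervals for copies that share reads cannot be given.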
